A study of Rattus norvegicus with 66 samples.

Results

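Calcium that neurons and glia keep in the endoplasmic reticulum reaches the cytosol through ryanodine receptors and inositol trisphosphate (IP3) receptors. Expression of 9 genes of this release system was followed in rat hippocampus after developmental exposure to Aroclor 1254, a commercial mixture of polychlorinated biphenyls (PCBs), or to either of 2 other chemicals. The 9 genes were taken by symbol from the 37777 genes of the count files: the ryanodine receptors Ryr1, Ryr2 and Ryr3, the IP3 receptors Itpr1, Itpr2 and Itpr3, the FK506-binding proteins Fkbp1a and Fkbp1b, and the calcium pump Atp2a2. Each symbol had 1 row, and all 9 genes passed the filter on low counts in every comparison.

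A ryanodine receptor opens when calcium enters through channels of the cell surface and binds to it, which amplifies the signal. An IP3 receptor opens when phospholipase C, switched on by surface receptors such as those for glutamate and acetylcholine, makes IP3. FK506-binding proteins sit on ryanodine receptors and keep them closed at rest, and the pump encoded by Atp2a2 (SERCA2) returns calcium to the store. Non-coplanar PCBs, which are major constituents of Aroclor 1254, are known to bind to the ryanodine receptor complex and to favour its open state, so that the Aroclor groups are the main question here.

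The pups were Long Evans rats killed on postnatal day 6. Their dams received Aroclor 1254 or bisphenol A in soy-free chow from before mating until that day, at 0.5 mg/kg per day (Aro05, BPA05) or 5 mg/kg per day (Aro5, BPA5). Chlorpyrifos was injected subcutaneously into the dams during pregnancy and again after birth, at 1 or 3 mg/kg per day (CPF1, CPF3). Feeding controls (CONF) received the same chow without chemical, and injection controls (CONSC) received vehicle, which is saline in the sample labels and dimethyl sulfoxide in the study's methods. Males numbered 4 CONF, 5 CONSC, 4 Aro05, 4 BPA05, 4 CPF1, 6 Aro5, 7 BPA5 and 7 CPF3, and females 5 CONF, 5 CONSC, 5 Aro5, 4 BPA5 and 4 CPF3, from 44 litters. CONF and CONSC pups of a sex were combined, following the methods. This gave 9 control males and 10 control females. Some pups share a litter: the 6 Aro5 males came from 5 litters and the 5 Aro5 females from 4.

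The tissue piece held dorsal hippocampus of both sides and a small part of the cortex beside it. Total counts of the 66 libraries ranged from 10644138 to 86206550, with a median of 20740650. The 8 markers of hippocampal neurons, Prox1 and Neurod6 among them, were detected in every pup. Group medians of their summed level lay between 532 and 578 CPM (counts scaled to a library total of 1000000). Between pups the sum ranged from 398 to 666 CPM, Prox1 from 22.9 to 182 CPM and Neurod6 from 12.1 to 200 CPM. The summed level of 5 neocortex markers ranged from 128 to 379 CPM between pups, and that of 6 thalamus markers from 171 to 1394 CPM. Library titles are written in either of 2 forms. In males, all low-dose libraries and 9 of 10 control libraries have form A, with a capital pup letter, and all high-dose libraries have form B. What the forms stand for is not given, and high dose and name form cannot be told apart in males. Bulk RNA does not tell fewer cells of a type from less RNA per cell.

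Ryr2 and Itpr1 varied together over pups, and their promoter sequences are shown because the results turn on these 2 genes. RefSeq gives, on the build GRCr8, 300 bases from 250 before to 50 after the start of each gene. Ryr2 lies at chr17:63081277-63081576 and Itpr1 at chr4:142743190-142743489, both on the plus strand. Capitals mark the core of the xenobiotic response element, GCGTG on either strand, to which the aryl hydrocarbon receptor binds. Coplanar PCBs activate this receptor.
Ryr2: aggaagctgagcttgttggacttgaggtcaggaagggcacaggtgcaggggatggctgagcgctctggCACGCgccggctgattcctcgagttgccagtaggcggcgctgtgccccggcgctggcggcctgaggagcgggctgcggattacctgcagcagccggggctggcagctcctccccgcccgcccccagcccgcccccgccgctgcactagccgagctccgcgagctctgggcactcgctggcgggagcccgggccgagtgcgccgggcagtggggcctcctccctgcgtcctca
Itpr1: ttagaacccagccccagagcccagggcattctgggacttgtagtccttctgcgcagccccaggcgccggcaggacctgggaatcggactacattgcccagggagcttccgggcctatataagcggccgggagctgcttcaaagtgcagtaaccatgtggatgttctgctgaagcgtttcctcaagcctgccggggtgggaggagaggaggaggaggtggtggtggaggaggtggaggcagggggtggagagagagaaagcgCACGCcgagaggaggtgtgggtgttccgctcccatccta
The core starts 182 bases before the start of Ryr2 and at base 12 of the Itpr1 transcript, in both as its reverse complement. It was also found in the windows of Ryr1, Itpr2, Fkbp1a, Fkbp1b and Atp2a2, but not in those of Ryr3 and Itpr3. Of 33469 rat promoters of this length 29.7% held it, so that a match alone sets neither gene apart. The GC box, GGGCGG on either strand, occurred 3 times in the Ryr2 window and not at all in that of Itpr1, and was present in 33.1% of all promoters. GC content was 73.0% and 62.0%, against a median of 51.7% over all promoters.

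No member passed an adjusted p of 0.05 in any of the 20 comparisons (edgeR quasi-likelihood test, Benjamini-Hochberg adjustment over all genes tested). In Aro5 males against controls, 32 of 16393 genes did so (0.195%), in Aro05 males 20 of 16139 (0.124%), and in Aro5 females 0 of 16992 (0.0%). At an unadjusted p under 0.05, 2 of 9 members stood out in Aro5 males (Ryr2 and Itpr1), 2 of 9 in Aro05 males (Ryr3 and Fkbp1a) and 0 of 9 in Aro5 females. Over all genes this share was 11.8% in Aro5 males, 18.5% in Aro05 males and 3.23% in Aro5 females. DESeq2 gave no adjusted p under 0.05 for a member in any of the 9 comparisons of a treated group with controls.

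**Figure D1:**
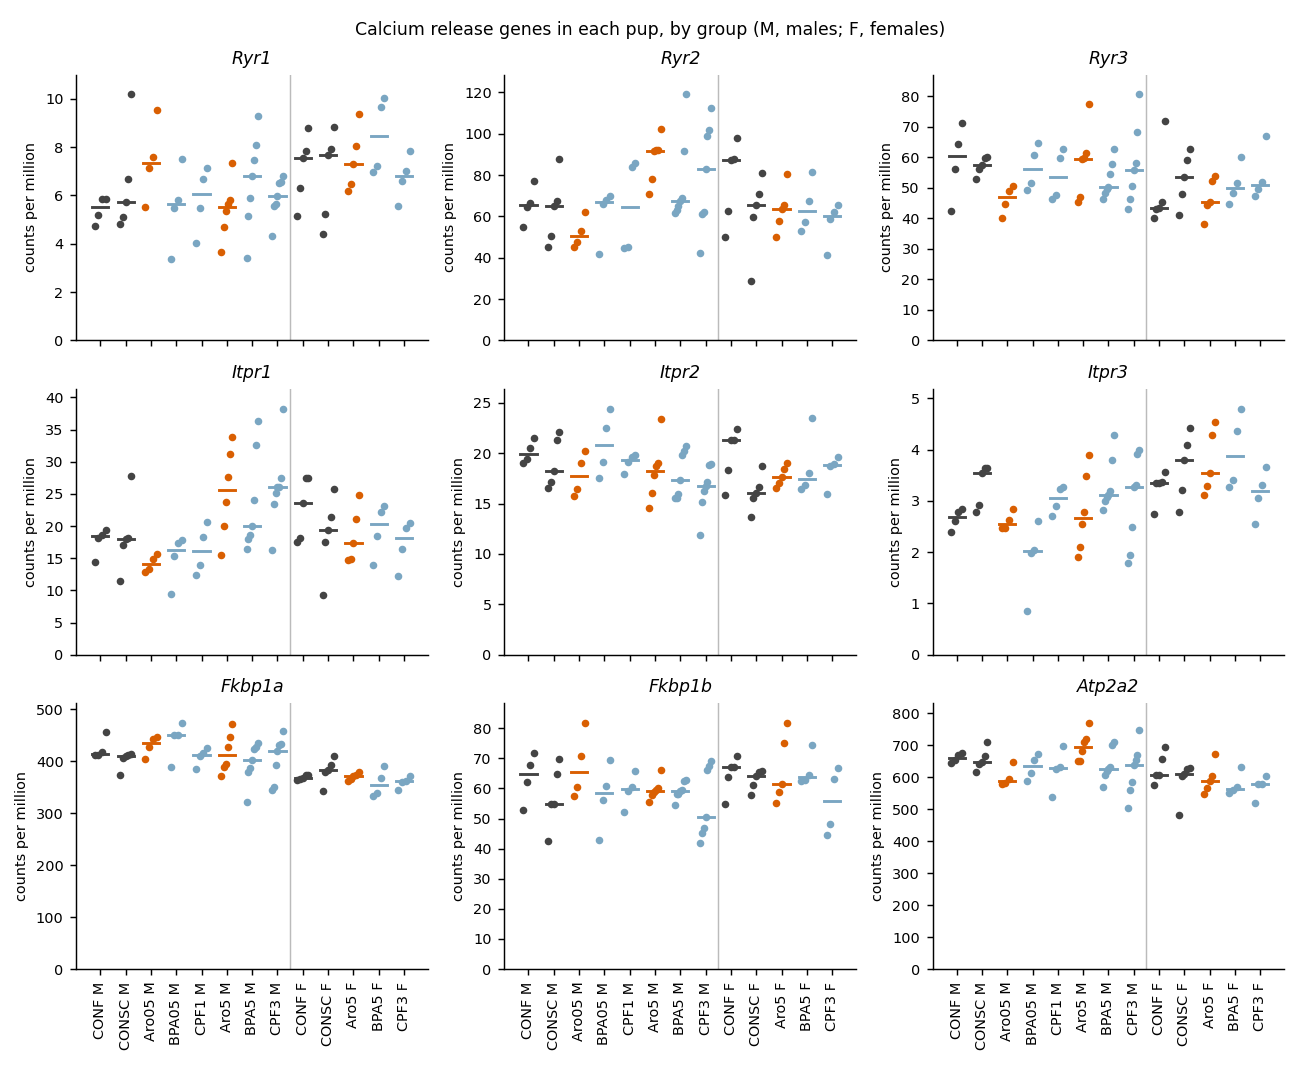
Level of each of the 9 genes in CPM (y axis, from 0) in every pup of the 13 groups (x axis; M, males; F, females), with a horizontal line at each group's median and Aroclor groups in orange. Aro5 males lay high for Ryr2 and Itpr1, at medians of 91.8 and 25.6 CPM, and Aro05 males lay low, at 50.4 and 14.2 CPM.

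Ryr2, the main ryanodine receptor of brain and heart, lay on opposite sides of the control mean at the 2 Aroclor doses in males. In the 6 Aro5 males its lowest, median and highest levels were 71.0, 91.8 and 102 CPM. In the 9 control males they were 45.1, 64.9 and 87.7 CPM. All 6 Aro5 males lay above the control mean of 64.3 CPM, and 4 of them above the highest control. The log2 fold change was 0.47 (SE 0.17, 95% interval 0.11 to 0.82), with an unadjusted p of 0.0115 and an adjusted p of 0.284. In the 4 Aro05 males Ryr2 stood at 45.3, 47.8, 53.1 and 62.1 CPM, all under the control mean. Their log2 fold change was -0.23 (SE 0.18, interval -0.61 to 0.14, adjusted p 0.488). The Aro05 and Aro5 males did not overlap, but the share of all genes without such overlap was not computed. Their libraries also differ in name form, and the difference between doses was not tested.

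Ryr1, the skeletal muscle isoform that is also expressed in some neurons, had the fewest counts of the ryanodine receptors, 36 to 567 per pup. Aro05 males had 5.54, 7.13, 7.59 and 9.53 CPM, and control males 4.73, 5.71 and 10.2 CPM as lowest, median and highest. Hence 3 of 4 Aro05 pups exceeded the control mean, but the highest pup was a control, and the log2 fold change of 0.39 had an interval from -0.01 to 0.80 (SE 0.20, unadjusted p 0.0564, adjusted p 0.281). It was 0.23 without pup 98-8y and 0.52 without the CONSC pup 8-4y. In Aro5 males Ryr1 ranged from 3.64 to 7.34 CPM (median 5.50), and the log2 difference from controls was -0.11 (SE 0.18, adjusted p 0.853).

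Ryr3, an isoform found at lower levels in many tissues and prominent in the hippocampus, had 40.2, 44.6, 49.0 and 50.4 CPM in Aro05 males. Control males ranged from 42.2 to 71.2 CPM with a median of 57.4. All 4 Aro05 pups lay under the control mean of 57.8 CPM, 1 of them below the lowest control and the other 3 within the control range. The log2 fold change was -0.26 (SE 0.11, interval -0.48 to -0.04, unadjusted p 0.0236, adjusted p 0.212), and with only libraries of name form A it was -0.28. Aro5 males had a lowest, median and highest Ryr3 level of 45.4, 59.6 and 77.3 CPM, close to controls (log2 fold change 0.03, interval -0.22 to 0.27). Its sign turned with several settings.

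Among the IP3 receptors, Itpr1, the main neuronal isoform, took the same course as Ryr2. Its lowest, median and highest levels were 15.6, 25.6 and 33.8 CPM in Aro5 males and 11.4, 18.2 and 27.7 CPM in control males. Of the 6 Aro5 pups, 5 exceeded the control mean of 18.1 CPM and 2 the highest control. The log2 fold change was 0.50 (SE 0.19, interval 0.11 to 0.89, unadjusted p 0.0132, adjusted p 0.292). Aro05 males had 12.9, 13.4, 14.9 and 15.7 CPM, all under the control mean (log2 fold change -0.28, SE 0.17, interval -0.64 to 0.08, adjusted p 0.375). One Aro5 pup, at 15.6 CPM, lay within the Aro05 range.

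The call for Itpr1 changed when pups were restricted to a window of dissection time. The study's methods give a window from 10.30 to 13.20 h. The labels place 2 of 6 Aro5 males and 3 of 9 control males outside it. All 3 of these controls are CONSC pups, so that the restriction also changes the mix of control routes. It leaves out the 2 Aro5 males lowest for both Itpr1 and Ryr2, 108-1y and 117-4y, at 71.0 and 78.0 CPM for Ryr2. The control male highest for both genes, 10-2y, at 87.7 CPM for Ryr2, is left out too. Of the 4 Aro5 males kept, 120-1y and 120-2y share a litter. The part of dissection time itself was not tested. With the 4 Aro5 and 6 control males inside the window, the log2 fold change of Itpr1 was 0.83 (adjusted p 0.0313), and that of Ryr2 was 0.68 (adjusted p 0.0774). In that fit 4.96% of all 16484 genes passed the threshold, against 0.195% with all pups. With the name form as a covariate the values were 0.38 for Itpr1 and 0.27 for Ryr2, both with an adjusted p of 1.0. This fit rests on the only control male with libraries of both forms.

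**Figure D2:**
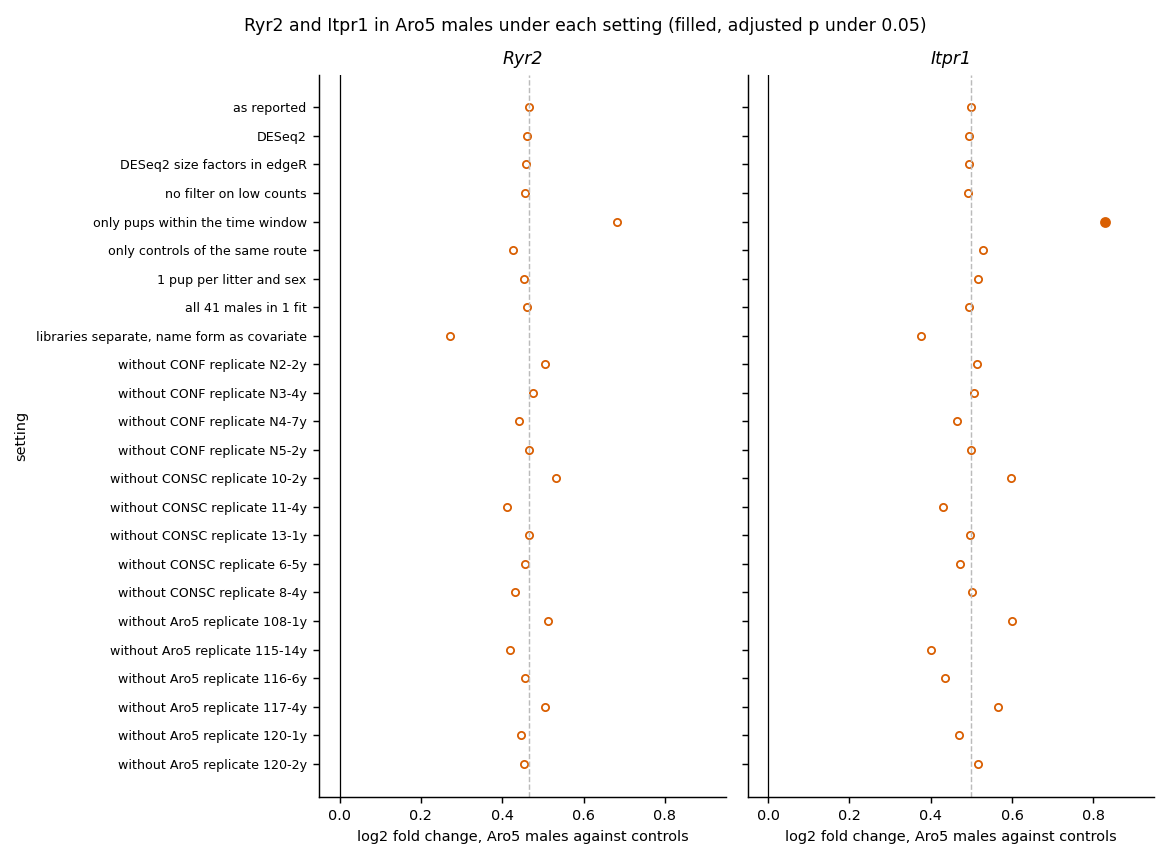
Log2 fold change of Ryr2 (left) and Itpr1 (right) in Aro5 males against control males (x axis) under each setting (y axis), where the dashed line marks the value as reported and a filled point an adjusted p under 0.05. All points lie above 0, between 0.27 and 0.68 for Ryr2 and between 0.38 and 0.83 for Itpr1, and the only filled point is that of Itpr1 with pups inside the time window.

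Itpr2, the isoform known from astrocytes, and Itpr3, an isoform of epithelia and other peripheral cells, showed little difference in the Aroclor groups. Itpr2 had medians of 18.3 CPM in Aro5 males, 17.7 CPM in Aro05 males and 19.4 CPM in control males, with log2 fold changes of -0.08 (SE 0.10) and -0.06 (SE 0.09). Itpr3 had 9 to 264 counts per pup. Its log2 fold changes were -0.09 (interval -0.43 to 0.26) in Aro5 and -0.15 (interval -0.49 to 0.20) in Aro05 males.

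Fkbp1a and Atp2a2 had the smallest SEs of the 9 genes in the 3 Aroclor comparisons. Fkbp1a (FKBP12) had 405, 428, 444 and 446 CPM in Aro05 males and between 374 and 457 CPM (median 412) in control males. The log2 fold change was 0.13 (SE 0.06, interval 0.00 to 0.26, unadjusted p 0.0435, adjusted p 0.258). Fkbp1b (FKBP12.6) stood at 57.6, 60.4, 70.8 and 81.8 CPM in Aro05 males, of which the highest exceeded all control males (42.6 to 71.6 CPM). Its log2 fold change was 0.24 (SE 0.13, adjusted p 0.316), and 0.12 without pup 98-8y. In Aro5 males both were near controls, at 0.03 (interval -0.11 to 0.18) for Fkbp1a and 0.01 (interval -0.22 to 0.23) for Fkbp1b. Atp2a2 had its highest group mean in Aro5 males, at 697 ± 46.3 CPM (SD, n = 6), against 658 ± 25.7 (n = 9) in controls. The difference was 0.10 on the log2 scale (SE 0.07, adjusted p 0.579). In Aro05 males it was -0.06 (SE 0.06, adjusted p 0.595).

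In females, Aro5 values lay close to those of controls for all 9 genes. Ryr2 in the 5 Aro5 females was 50.1, 57.9, 63.5, 65.5 and 80.5 CPM, and control females ranged from 28.5 to 97.8 CPM with a median of 68.2. Itpr1 was 14.7, 14.9, 17.3, 21.0 and 24.9 CPM, against 9.25 to 27.4 CPM with a median of 20.4. All Aro5 females lay within the control range for both genes. The log2 fold changes were -0.10 (SE 0.19, interval -0.50 to 0.30) for Ryr2 and -0.14 (SE 0.19, interval -0.53 to 0.26) for Itpr1, and the lowest unadjusted p of the 9 was 0.29, for Itpr3. The intervals leave room for a change of Ryr2 up to 0.30 or down to -0.50.

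Whether Aro5 values differed by sex was tested as an interaction. Male minus female log2 fold changes were 0.65 for Itpr1 (SE 0.28, unadjusted p 0.0261, adjusted p 0.49) and 0.58 for Ryr2 (SE 0.27, unadjusted p 0.0369, adjusted p 0.518). Hence 2 of 9 members had an unadjusted p under 0.05, against 8.92% of all genes, and none passed the adjusted threshold, against 17 of 17282 genes (0.0984%). With pups inside the time window the interaction of Itpr1 was 1.13 (adjusted p 0.0381), in a fit where 3.49% of all genes passed. Name forms of the treated females cannot be read from their titles.

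Name forms were also compared without treatment. The labels give the 2 libraries of female N4-3x different dissection times, 12.09 and 11.55 h, so that it is in doubt whether they come from 1 pup. They were summed on the strength of their shared pup number. Among 11 libraries of control females, 6 of form B were compared with 5 of form A, with pup N4-3x in both sets. The log2 fold change of Itpr1, form B minus form A, was 0.47 (SE 0.20, interval 0.03 to 0.90, unadjusted p 0.0363, adjusted p 0.237). Ryr2 gave 0.47 (SE 0.22, interval -0.01 to 0.94, adjusted p 0.274) and Atp2a2 0.16 (SE 0.07, unadjusted p 0.0432, adjusted p 0.253). No member passed the adjusted threshold, against 1.43% of all genes, and 2 of 9 had an unadjusted p under 0.05, against 18.7%. In the 2 pup numbers with a library of each form, Ryr2 was lower in form B, by a log2 difference of -0.02 in female N4-3x and -0.13 in male N2-2y. Itpr1 was higher in form B in both, by 0.38 and 0.07. The part of the name form in the Aro5 values of males was not tested beyond the covariate fit.

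The bisphenol A and chlorpyrifos groups were set beside the Aro5 group to see how far its values stand apart. These comparisons share their control pups, so that they are not independent of each other. In 7 BPA5 males the lowest, median and highest Itpr1 levels were 16.5, 20.1 and 36.3 CPM, and in 7 CPF3 males 16.3, 26.1 and 38.3 CPM. The log2 fold changes against controls were 0.39 in BPA5 (SE 0.18, unadjusted p 0.0418, adjusted p 0.536) and 0.54 in CPF3 (SE 0.18, unadjusted p 0.00637, adjusted p 0.271), beside 0.50 in Aro5. For Ryr2 they were 0.26 (SE 0.17) and 0.33 (SE 0.17), beside 0.47. Without the BPA5 pup 88-3y, Ryr2 and Itpr1 gave 0.12 and 0.26 in BPA5 males. With name form as a covariate Ryr2 gave 0.06 in BPA5 and 0.13 in CPF3 males, beside 0.27 in Aro5 males. Against controls, 0.189% of all genes passed the adjusted threshold in BPA5 males and 0.159% in CPF3 males.

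A direct comparison of high-dose males, whose libraries all have name form B, found no member and no gene past the adjusted threshold. Aro5 minus BPA5 was 0.21 for Ryr2 (interval -0.17 to 0.58) and 0.11 for Itpr1 (interval -0.30 to 0.52). Aro5 minus CPF3 was 0.14 for Ryr2 (interval -0.24 to 0.51) and -0.04 for Itpr1 (interval -0.44 to 0.37). All 4 intervals include 0. For Itpr1 against CPF3 the interval ends below the 0.50 of Aro5 against controls, whereas the other 3 reach the size of the Aro5 value against controls. For Atp2a2, Aro5 minus CPF3 was 0.17 (SE 0.07, unadjusted p 0.0195, adjusted p 0.943) and Aro5 minus BPA5 was 0.14 (SE 0.07, unadjusted p 0.0528, adjusted p 0.818). Unadjusted p values under 0.05 numbered 722 of 16393 genes against BPA5 and 684 against CPF3.

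At the low doses all libraries have form A. Aro05 minus BPA05 was 0.45 for Itpr3 (SE 0.20, unadjusted p 0.0379, adjusted p 0.315), -0.26 for Ryr3 (SE 0.13, unadjusted p 0.0528) and 0.44 for Ryr1 (SE 0.23, unadjusted p 0.0749). The value of Itpr3 came with a low level in BPA05 males, at 0.846, 1.99, 2.04 and 2.61 CPM, against 2.39 to 3.65 CPM in control males. Against controls, where 0.0434% of all genes passed in BPA05 males, its log2 fold change was -0.60 (SE 0.18, unadjusted p 0.00344, adjusted p 0.411), and -0.40 without pup 72-4y. No gene passed the adjusted threshold between Aro05 and BPA05 or between Aro05 and CPF1 males, and 2478 and 1171 of 16139 genes had an unadjusted p under 0.05. Against CPF1 males, the values of Ryr1, Ryr2 and Ryr3 were 0.42 (SE 0.24), -0.26 (SE 0.21) and -0.18 (SE 0.13).

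**Figure D3:**
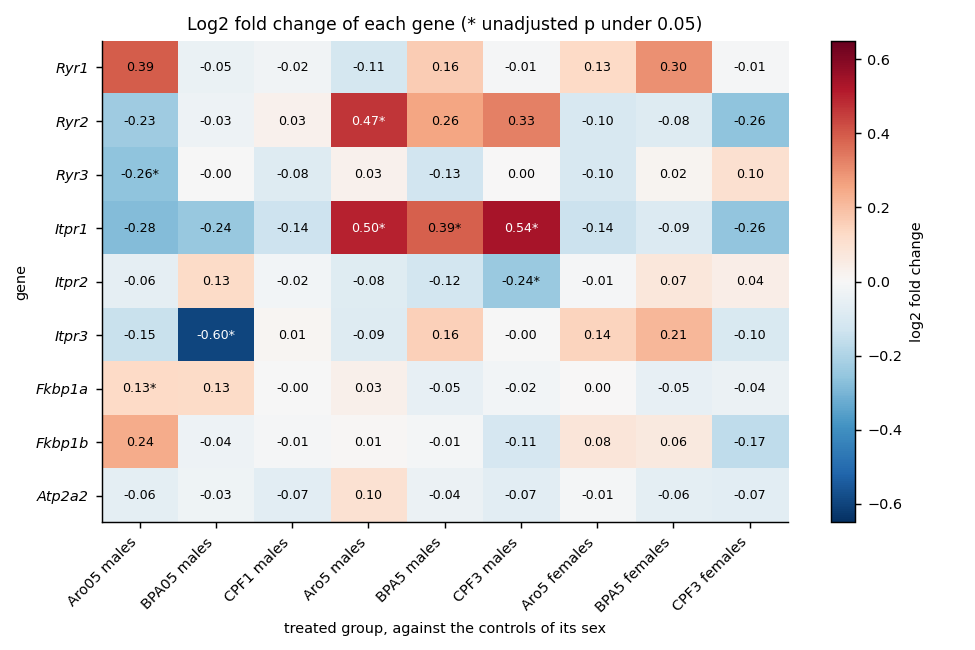
Log2 fold change of each gene (rows) in the 9 treated groups (columns) against the controls of its sex, with red for higher and blue for lower. Asterisks mark an unadjusted p under 0.05, as for Itpr1 in the high-dose males (0.50, 0.39 and 0.54), and no value passed the adjusted threshold.

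In control pups, Fkbp1a came closest to a sex difference. Control females had 375 ± 18.1 CPM (SD, n = 10) and control males 413 ± 21.0 CPM (SD, n = 9), a female minus male log2 difference of -0.10 (SE 0.04, unadjusted p 0.0194, adjusted p 0.0594). Of all genes, 30.9% passed the adjusted threshold in this comparison, in which 6 of 11 female and 1 of 10 male libraries have form B. Between CONSC and CONF pups no member passed, against 0.013% of genes in males and 0.0% in females. For Itpr2 the log2 fold change of CONSC against CONF females was -0.31 (SE 0.12, unadjusted p 0.0198, adjusted p 0.85), at 13.7, 15.5, 16.0, 16.6 and 18.7 CPM against 15.8, 18.3, 21.3, 21.3 and 22.4 CPM.

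Group means of each gene, placed in order from lowest to highest, were never separated from the next by more than the larger SD of the pair. In the order of means, Fkbp1a was lower in all 5 female groups (358 to 381 CPM) than in all 8 male groups (397 to 441 CPM).

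Ryr2 and Itpr1 varied with markers of neocortex across pups. The list holds Tbr1, Fezf2, Rorb, Cux2 and Lamp5, of which Lamp5 is also known from hippocampal neurons. All 5 markers were detected in every pup. Their summed level ranged from 226 to 345 CPM in Aro5 males (median 277), from 136 to 184 CPM in Aro05 males (median 139) and from 145 to 259 CPM in control males (median 192). It ranged from 196 to 250 CPM in Aro5 females and from 128 to 379 CPM in control females. None of the 5 passed the adjusted threshold. Their median log2 fold change was 0.61 in Aro5 males, -0.42 in Aro05 males, -0.09 in Aro5 females and 0.54 in untreated form B against form A libraries. All 5 were higher in Aro5 males (0.025 to 0.70), but 4 of 5 in the form B libraries (-0.84 to 0.78).

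The relation was computed over 64 pups between the log2 level of each member and the log2 summed level of 4 marker lists, 36 relations in all, with 2-sided permutation tests. For Ryr2 and the neocortex list Pearson's r was 0.82 and Spearman's rho 0.81 (permutation p 1e-05 for both, the smallest 100000 resamples can give, and adjusted p 9e-05 and 0.00012). Without the 2 pups farthest from the median of the markers r was 0.81, in males of form A 0.80 (n = 20), in males of form B 0.73 (n = 20), in females 0.90 (n = 23) and in the 19 control pups 0.84. For Itpr1, r was 0.76 and rho 0.70 (permutation p 1e-05 for both, adjusted p 9e-05 and 0.00012), r was 0.74 without the 2 pups, and 0.62, 0.52, 0.84 and 0.78 in the same subsets. Hence the relation held among untreated pups and within each name form. Pups of a litter were treated as independent in these tests.

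Ryr1 rose with markers of thalamus. Its r with 6 thalamus markers (Tcf7l2, Lhx9, Slc17a6, Calb2, Gbx2 and Prkcd) was 0.62 and rho 0.68 (permutation p 1e-05 for both, adjusted p 9e-05 and 0.00012). Without the 2 farthest pups r was 0.66, and it was 0.76 and 0.71 in males of forms A and B, 0.65 in females and 0.72 in controls. The thalamus markers had a summed level of 818 to 1386 CPM in Aro05 males (median 1234), 181 to 1167 CPM in Aro5 males (median 532) and 532 to 1394 CPM in control males (median 725). Their median log2 fold change was 0.52 in Aro05 males, in which Ryr1 gave 0.39, and -0.43 in Aro5 males, in which Ryr1 gave -0.11. Over all pups Ryr2 fell with the thalamus list, at r -0.41 and rho -0.50 (permutation tests, adjusted p 0.00355 and 0.00012). Within subsets r was -0.38 and -0.61 in males of forms A and B, but only -0.08 in females and -0.18 in controls. With 6 striatum markers, r was -0.44 for Ryr1 (adjusted p 0.00174), -0.35 for Itpr1 (adjusted p 0.0129), -0.15 for Ryr2 (adjusted p 0.371) and 0.38 for Ryr3 (adjusted p 0.00931). The striatum markers had a median log2 fold change of -0.91 in Aro05 males and -0.01 in Aro5 males. The part of these regions in the Aroclor values of Ryr1, Ryr2 and Itpr1 was not tested.

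**Figure D4:**
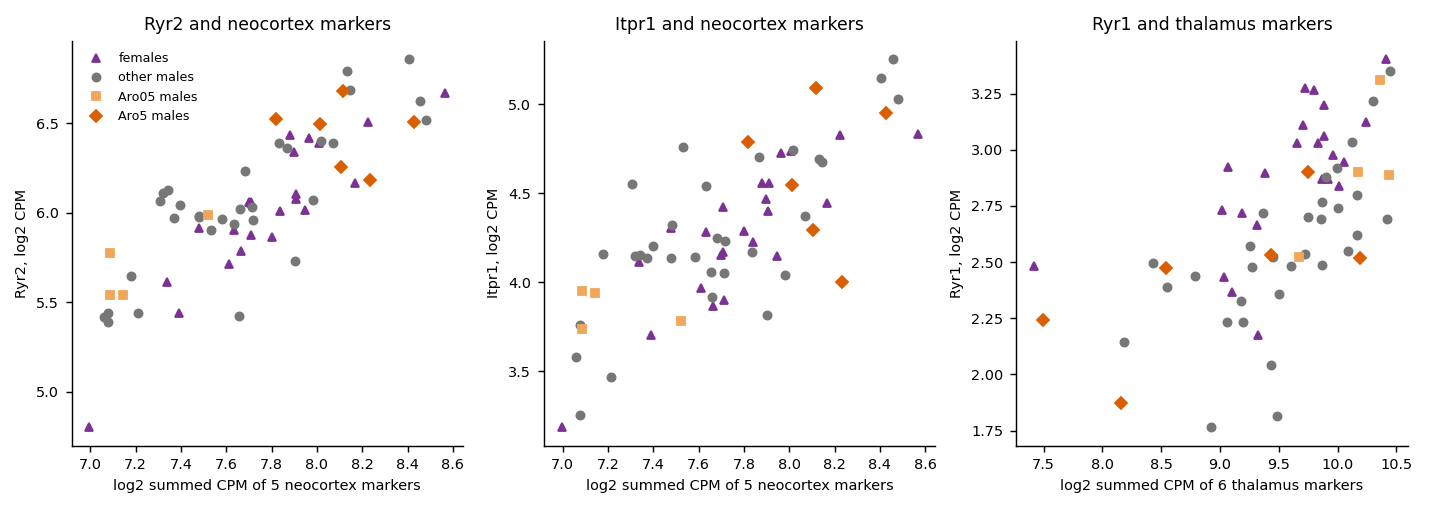
Log2 CPM of Ryr2 (left) and Itpr1 (middle) against the log2 summed CPM of 5 neocortex markers, and of Ryr1 (right) against that of 6 thalamus markers, with 1 point per pup. The points rise together (r 0.82, 0.76 and 0.62), with the Aro5 males (orange diamonds) in the upper and the Aro05 males (light squares) in the lower part of the neocortex axis.

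Itpr2 followed astrocyte markers, as r was 0.57 and rho 0.52 with the summed level of Aqp4, Gfap, Aldh1l1, Slc1a3, Gja1 and Aldoc (permutation p 1e-05 and 2e-05, adjusted p 9e-05 and 0.00012). It was 0.50 without the 2 farthest pups, 0.54 and 0.79 in males of forms A and B, 0.32 in females and 0.53 in controls. Atp2a2 gave r 0.51 and rho 0.51 with the neocortex list (permutation p 2e-05 for both, adjusted p 0.00014 and 0.00012), and 0.50 without the 2 farthest pups. Within subsets it was 0.53 and 0.48 in males of forms A and B and 0.76 in females.

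The genes most like each member were sought among 14639 genes by Spearman's rho over the 64 pups, as a description, since the pups share groups and tissue makeup. Ryr2 was most like Dock9 (0.90), Cnksr2 (0.90) and Sorl1 (0.90), and Itpr1 most like Slc16a7 (0.90), Fat4 (0.89) and Kcnt2 (0.88). Ryr1 was most like Sorcs2 (0.88), Gsg1l (0.85) and Gpr153 (0.85), and Ryr3 like Skil (0.78), RGD1311723 (0.78) and Cdh8 (0.77). Itpr2 was most like Ntrk2 (0.71), Serinc5 (0.70) and Ppargc1a (0.68), and Itpr3 like Pcnt (0.78), Fasn (0.77) and Ptprs (0.77). Fkbp1a was most like Calm2 (0.84), a calmodulin gene, then Vps29 (0.84) and Ubl4a (0.83). Fkbp1b was most like Ckmt1b (0.84), Sult4a1 (0.83) and Tango2 (0.83), and Atp2a2 like Atrnl1 (0.87), Arap2 (0.85) and Adam22 (0.85). After centring each group on its mean, rho of these pairs stayed between 0.68 and 0.92.

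Among the members themselves, the highest rho was that of Ryr2 with Itpr1 (0.82), then Ryr2 with Atp2a2 (0.70). The lowest were Itpr3 with Fkbp1a (-0.63) and Ryr3 with Fkbp1b (-0.51). The ryanodine receptors did not go together: rho was 0.34 for Ryr2 with Ryr3, -0.30 for Ryr1 with Ryr2 and -0.34 for Ryr1 with Ryr3.

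The wider calcium pathway was described with 8 lists of 76 genes in all: the ryanodine receptor complex, IP3 signalling, other SERCA pumps and their regulators, store-operated entry, extrusion at the plasma membrane, L-type channels, chaperones of the reticulum and the mitochondrial uniporter. Of these, 70 were tested in males and 72 in females, and none passed the adjusted threshold in a treated group against controls. Between control females and control males, 20 of 70 passed (15 higher and 5 lower in females), against 30.9% of all genes. At an unadjusted p under 0.05 there were 18 in Aro05 males (10 higher and 8 lower, 25.7%), 14 in Aro5 males (9 higher and 5 lower, 20.0%) and 2 in Aro5 females (1 higher and 1 lower, 2.78%). The shares over all genes were 18.5%, 11.8% and 3.23%. The median log2 fold changes of the lists together were 0.06, 0.01 and 0.01, with medians near 0.00 over all genes.

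In Aro05 males the lowest p was that of Calm3, a calmodulin gene, with 944 ± 73.0 CPM (SD, n = 4) against 793 ± 74.9 (n = 9), a log2 difference of 0.32 (SE 0.08, adjusted p 0.115). It was followed by Orai2, a subunit of store-operated channels (0.28, SE 0.08, adjusted p 0.124), and Bok, which binds IP3 receptors (0.36, SE 0.11, adjusted p 0.13). Plcb1 is the phospholipase C isoform that makes IP3 in hippocampal neurons. It ranged from 77.3 to 86.7 CPM in Aro05 males and from 89.1 to 151 CPM in controls. Its log2 fold change was -0.45 (SE 0.14, adjusted p 0.145). Sln, an inhibitor of SERCA pumps, had 2.16 to 2.50 CPM against 0.994 to 2.07 CPM (0.56, SE 0.18, adjusted p 0.145).

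In Aro5 males the lowest p was that of Calr, the calcium-binding chaperone calreticulin, at 492 to 545 CPM against 548 to 676 CPM in controls. Its log2 fold change was -0.17 (SE 0.05, adjusted p 0.212). Of the 5 chaperones of the reticulum, 1 of the 8 lists and singled out after its values were seen, 4 had an unadjusted p under 0.05, against 11.8% of all genes, and their median was -0.17. In BPA5 and CPF3 males, 3 and 4 of the 5 did so, against 1492 and 2064 of 16393 genes, with medians of -0.17 and -0.21. All 5 were also lower in CPF1 males (median -0.14) and CPF3 females (-0.12), and 4 of 5 in Aro05 males (-0.04) and Aro5 females (-0.06). In BPA05 males all 5 were higher (0.04), and in BPA5 females 3 were lower and 2 higher (-0.01). Grm5, the glutamate receptor mGluR5 that drives IP3 formation, had a median of 149 CPM in Aro5 males against 79.0 CPM in controls. Its fold change was the largest of those named (0.80, SE 0.24, adjusted p 0.219). Homer1, which links mGluR5 to IP3 and ryanodine receptors, gave 0.37 (SE 0.14, adjusted p 0.292). Gnaq, the G protein subunit between receptor and phospholipase C, gave 0.46 (SE 0.18, adjusted p 0.295), and Micu3, a regulator of the mitochondrial uniporter, 0.36 (SE 0.14, adjusted p 0.298).

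In untreated female libraries of form B against form A, Grm5 gave 0.32 (SE 0.20, unadjusted p 0.139), Gnaq 0.40 (SE 0.21, unadjusted p 0.0779) and Calr 0.08 (SE 0.09, unadjusted p 0.392), and Homer1 0.18 and Micu3 -0.13. Calr and Micu3 thus had the opposite sign there, and the other 3 the same sign as in Aro5 males. Of the 5 chaperones of the reticulum, 4 were lower in form B and 1 higher, with a median of -0.14. Among them 1 had an unadjusted p under 0.05, Pdia3 (-0.18, SE 0.07, unadjusted p 0.0209), against 18.7% of all genes. Calm3 was the only pathway gene past the adjusted threshold in that comparison (0.25, SE 0.06, adjusted p 0.0416). In Aro5 females the 5 lowest p values were those of Cacnb1 (0.17, SE 0.06), Micu3 (-0.22, SE 0.10), Pdia3 (-0.12, SE 0.07), Jph4 (0.11, SE 0.06) and Jph3 (0.14, SE 0.08), all with an adjusted p of 0.999.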

How the data were processed

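RNA of dorsal hippocampus with some adjacent cortex was sequenced from stranded poly(A) libraries. The deposited files hold raw counts per gene, which the authors made with STAR on Rnor_6.0 and featureCounts. Versions, strand and multi-mapping settings are not given in the sources used here, and labels and methods name different sequencers. Counts of the 2 pups with 2 libraries were summed, giving 64 pups. CPM is the count scaled to a pup's total of 1000000.

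Genes were filtered by filterByExpr and tested with edgeR 4.0.16 (TMM, quasi-likelihood, Benjamini-Hochberg, threshold 0.05) in R 4.3.3, over all genes. Fits were made separately for low-dose males, high-dose males and females with the controls of that sex. The scripts were tested on simulated data. Alternatives were DESeq2 1.42.0 and its size factors, no filter, pups inside the time window, controls of the same route, 1 pup per litter, name form, limma 3.58.1 with litter as a block, and leaving out each pup. Correlations with marker sums were added after the data were seen. The genes named are the members and pathway genes of the 3 comparisons of an Aroclor group with controls. There, any gene past the threshold was to be named, and in any case the 5 with the lowest p. Also named are the 3 genes most like each member by Spearman's rho of log2 CPM (TMM-scaled) among genes with a mean of at least 1 CPM. The members and all lists were chosen with earlier results of these data known. P-values of the fits on pups rest on the spread between pups, with pups of a litter treated as independent unless stated. The comparison of name forms in control females used single libraries, with pup N4-3x in both sets. The fit with name form as a covariate also used single libraries. Counts per pup ran from 9 for Itpr3 to 52017 for Atp2a2, and the SEs did not follow the counts. A marker of a region list is not reported here and was left out of its sums.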

Additional observations from a re-analysis of the deposited data

Results flagged for a closer look

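Within groups of 4 to 7 pups, the highest or lowest pup was tested for its distance from the others by Dixon's criterion. It stood apart in 6 of 117 sets of gene and group, and chance gives about 1 in 20. Ryr2 was 41.9 CPM in the BPA05 male 73-4y, with the next at 66.1 CPM. The CONF female N4-3x, which has 2 libraries, was highest for Ryr3, at 72.0 CPM with the next at 45.3 CPM, and lowest for Itpr3, at 2.74 CPM with the next at 3.35 CPM. Fkbp1a was 457 CPM in the CONF male N3-4y (next 418 CPM) and 374 CPM in the CONSC male 10-2y (next 407 CPM). Atp2a2 was 482 CPM in the CONSC female 9-1x, with the next at 605 CPM.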

How the results depend on the processing

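Counts of members past the adjusted threshold were 0 in 197 of 199 values under alternatives. Both others came from pups inside the time window, with 1 member in Aro5 males and 1 in the interaction, Itpr1 in each (log2 fold changes 0.828 and 1.13). A litter block (limma-voom, consensus correlation -0.0061) was fitted only for the interaction of sex and Aro5. There Ryr2 and Itpr1 gave 0.52 and 0.58, as without the block, and no call changed. In Aro05 males inside the window Ryr2 and Itpr1 gave -0.137 and -0.167.

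Of 762 log2 fold changes under alternatives, 44 changed sign, none of them past the threshold, and the cause was not tested. With controls of the same route these were Itpr3 in Aro05 males (0.032) and, in Aro5 males, Ryr1 (0.032), Itpr3 (0.093), Fkbp1a (-0.013) and Fkbp1b (-0.078). With name form as a covariate they were Ryr1 (0.005) and Ryr3 (-0.159) in Aro5 males, and with form A only, Ryr2 (-0.105) and Itpr1 (-0.003) between control sexes. With pups inside the window they were Itpr2 (0.02) and Fkbp1b (-0.096) in Aro5 males, Fkbp1a (-0.011) and Fkbp1b (-0.018) in Aro5 females, and Itpr2 (0.071) in the interaction. With 1 pup per litter they were Ryr3 (-0.067) in Aro5 males and Itpr2 (0.004) and Fkbp1a (-0.005) in Aro5 females. Without the filter they were Fkbp1b (-0.001) in Aro5 males and Fkbp1a (-0.002) in Aro5 females. Leaving out 1 pup at a time in Aro5 males gave -0.22 to 0.015 for Ryr1, -0.067 to 0.09 for Ryr3, -0.009 to 0.066 for Fkbp1a and -0.046 to 0.044 for Fkbp1b. In Aro5 females it gave -0.044 to 0.039 for Itpr2, -0.011 to 0.015 for Fkbp1a, -0.017 to 0.144 for Fkbp1b and -0.072 to 0.02 for Atp2a2.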
